A study of Mus musculus with 10 samples.

Results

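Glycosaminoglycan enzymes are the synthases, sulfotransferases, epimerases and endosulfatases that build and edit the sulfated chains of proteoglycans. They were selected by gene symbol among the protein-coding genes of the mouse genome build GRCm38, and 56 of the 54838 gene identifiers met the rule. Of these, 5 assemble the linker shared by chondroitin, dermatan and heparan sulfate, 16 act on chondroitin and dermatan sulfate, 23 on heparan sulfate, 3 make hyaluronan, and 9 carry related names but act on other glycans such as keratan sulfate and the HNK-1 epitope. The rule reads no expression values, but it was chosen with earlier results of these data known. From the same libraries, the study had reported enrichment of chondroitin and dermatan sulfate biosynthesis pathways in the dorsal dataset. The counts below are therefore no independent test of that report. The comparison addressed whether translated RNA of these enzymes differs between dorsal and ventral mossy cell-enriched populations of the hippocampus.

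Every library came from mice of the genotype MC-TRAP (*Drd2*-Cre;Eef1a1LSL.eGFPL10a/+) on the C57BL/6 strain, and the mice were males of about 10 weeks. In these mice, Cre driven by the *Drd2* gene switches on an EGFP-tagged ribosomal protein L10a, and translating ribosome affinity purification (TRAP) pulls down the RNA bound to the tagged ribosomes. The Dorsal group (n = 5 libraries) came from the dorsal end of the hippocampus, cut by proportional length, and the Ventral group (n = 5 libraries) from the remaining length with the medial ventral pole removed, and each library pooled the tissue of 5 mice. By the study's methods, hippocampi of one set of mice were divided into both parts, so the groups draw on the same mice, and whether a dorsal and a ventral library of the same number came from the same pool is not stated there. *Drd2*-Cre is not restricted to mossy cells, which are the excitatory neurons of the dentate hilus, because the study describes labelled interneurons and ventral subiculum neurons besides, and unbound RNA of other cells can be carried along in a precipitate.

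Chondroitin and heparan sulfate chains start from the same linker, built from xylose, galactose and glucuronic acid on a serine of the core protein. An *N*-acetylgalactosamine as the next sugar commits the chain to chondroitin and an *N*-acetylglucosamine commits it to heparan. Epimerases and sulfotransferases then modify the growing chain at defined positions, and the resulting sulfation pattern sets which growth factors, receptors and matrix proteins bind. In brain, chondroitin sulfate is a main component of the perineuronal matrix, and heparan sulfate proteoglycans sit at synapses and on growing axons.

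Of the 56 enzymes, 50 passed the expression filter of more than 1 CPM, the count scaled to a common library size, in at least 2 libraries. With edgeR's quasi-likelihood test over all 16806 tested genes, 14 of the 50 were dorsal-enriched and 1 was ventral-enriched, at an adjusted p below 0.05 and a log2 ratio of mean CPM plus 1 past 0.58. The added 1 makes this ratio smaller than the fitted log2 fold change for genes of low level. The dorsal share of 28% of the tested enzymes stood beside 15.7% of all tested genes and 11.4% of the 13549 tested protein-coding genes. The ventral share, 1 of 50, stood beside 9.85% of all tested genes and 10.3% of protein-coding genes. Of the 14, *Chst3* and *Hs3st3a1* passed the filter only through dorsal libraries. With more than 1 CPM required in at least 5 libraries, 13 of 47 tested enzymes were dorsal-enriched, beside 10.7% of protein-coding genes. In that fit 1 enzyme was ventral-enriched, beside 8.93%. The median log2 fold change, dorsal over ventral, was 0.38 over the 50 enzymes, -0.0044 over all tested genes and -0.04 over protein-coding genes. The fitted log2 fold change was above 0 for 36 of the 50, beside 49.6% of all tested genes and 46.7% of protein-coding genes. Dorsal and ventral libraries did not overlap for 10 enzymes, all higher in dorsal, beside 9.81% of all tested genes and 8.50% of protein-coding genes that separated in the dorsal direction, and 8.36% and 9.58% in the ventral direction. In such bulk precipitates, fewer cells of a type and less RNA per cell cannot be told apart.

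Promoter windows from RefSeq on GRCm38 were available for 43 of the 56 enzymes, and the 250 bases before the transcription start are printed here for 5 of them. They are the heparan 3-O-sulfotransferases *Hs3st4* and *Hs3st2*, the chondroitin and dermatan enzymes *Ust* and *Dsel*, all dorsal-enriched without overlap of the groups, and *Ext2*, the sole ventral-enriched enzyme, shown so that their base composition can be compared. Each window is written 5′ to 3′ along the gene's strand. Capitals mark matches, on either strand, to the GC box GGGCGG, the cAMP response element TGACGTCA or the E-box CACGTG, and a search for the TATA box TATAAA on either strand gave no match in these 5 windows. The windows lie at chr7:123982578-123982827 (plus strand), chr7:121392046-121392295 (plus strand), chr10:8518826-8519075 (minus strand), chr1:111864919-111865168 (minus strand) and chr2:93822569-93822818 (minus strand).
Hs3st4: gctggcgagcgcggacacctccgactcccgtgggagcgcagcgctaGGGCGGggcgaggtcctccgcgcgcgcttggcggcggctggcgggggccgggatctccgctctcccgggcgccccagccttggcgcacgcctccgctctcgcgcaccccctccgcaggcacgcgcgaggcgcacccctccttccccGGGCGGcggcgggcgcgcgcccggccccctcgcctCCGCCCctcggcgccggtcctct
Hs3st2: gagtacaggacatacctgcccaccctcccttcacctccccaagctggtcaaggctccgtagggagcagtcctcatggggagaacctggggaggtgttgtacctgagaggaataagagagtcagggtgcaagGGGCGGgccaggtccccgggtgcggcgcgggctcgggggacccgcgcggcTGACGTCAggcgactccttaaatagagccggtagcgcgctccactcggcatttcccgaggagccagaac
Ust: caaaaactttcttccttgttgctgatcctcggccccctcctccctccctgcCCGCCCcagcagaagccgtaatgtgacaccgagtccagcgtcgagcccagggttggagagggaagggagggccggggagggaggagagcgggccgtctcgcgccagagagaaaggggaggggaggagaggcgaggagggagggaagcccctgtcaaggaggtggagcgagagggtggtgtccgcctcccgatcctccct
Dsel: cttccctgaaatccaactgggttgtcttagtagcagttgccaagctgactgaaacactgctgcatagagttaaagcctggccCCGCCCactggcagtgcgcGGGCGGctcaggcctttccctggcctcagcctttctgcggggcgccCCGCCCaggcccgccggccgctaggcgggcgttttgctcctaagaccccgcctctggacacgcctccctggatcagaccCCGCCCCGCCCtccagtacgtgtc
Ext2: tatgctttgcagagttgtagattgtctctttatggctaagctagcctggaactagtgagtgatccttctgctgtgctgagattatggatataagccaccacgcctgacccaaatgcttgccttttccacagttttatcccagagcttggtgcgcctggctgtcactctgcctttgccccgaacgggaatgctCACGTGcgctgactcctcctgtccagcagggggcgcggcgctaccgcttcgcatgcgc

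The windows differed widely in CpG content, with 43 CG dinucleotides before *Hs3st4*, 17 before *Hs3st2*, 15 before *Ust*, 17 before *Dsel* and 12 before *Ext2*, against a median of 6 over all 32851 windows of the table. The enzymes had 50 windows, since some have more than 1 start, and these had a median of 16.5 and the 13 windows of 12 dorsal-enriched enzymes a median of 18. A GC box was found in 11 of the 13 windows of dorsal-enriched enzymes (84.6%), in 29 of the 50 windows of all enzymes (58%) and in 32.7% of all windows, without adjustment for CpG content. The cAMP response element was found before *Hs3st2* and *Hs3st3a1* among dorsal-enriched enzymes and in 1.55% of all windows. An E-box was found before *Chsy1*, *Hs3st3a1* and *Ext2* among the called enzymes and in 6.02% of all windows, and the TATA box before none of the dorsal-enriched enzymes and in 12.4% of all windows. No match to one motif overlaps a match to another in the printed windows, a pair of GC boxes overlaps before *Dsel*, and a match describes letters and not binding.

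For 9 mossy cell markers, of which 8 were tested, the sums were 1739 to 2010 CPM in dorsal and 1808 to 2117 CPM in ventral libraries. Of the 8, 3 were dorsal-enriched, namely *Gria2* (log2 fold change 0.81 ± 0.10), *Gria3* (0.70 ± 0.10) and *Cyp26b1* (1.05 ± 0.15), and 2 were ventral-enriched, *Calb2* and *Satb1* (-0.74 ± 0.10), so that the overlapping sums hold markers that moved in both directions. *Drd2* itself was at 28.1 ± 3.96 CPM in the dorsal and 20.7 ± 4.36 CPM in the ventral libraries (adjusted p = 0.0517), and *Calb2*, the calretinin gene known as a marker of ventral mossy cells, at 65.2 ± 9.32 and 616 ± 94.6 CPM (log2 fold change -3.24 ± 0.14). The sums do not test the mossy cell label. The glutamate receptor gene *Gria2* had the highest mean of the 9 in both groups (1143 CPM in dorsal, 651 CPM in ventral libraries). *Calcrl* (7.52 and 8.25 CPM) and *Nmb* (7.49 and 10.2 CPM) were low. The interneuron marker *Gad2* alone, at 2853 ± 453 and 3174 ± 407 CPM, was above the mossy cell sums. Counts on genes ranged from 11138676 to 20594364 per library.

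Measures of the libraries as a whole differed between the groups. The share of read pairs on no annotated gene was 27.0 ± 5.09% in dorsal and 14.4 ± 3.0% in ventral libraries (two-sided exact permutation test, p = 0.00794), without overlap of the groups. With it as a covariate, a choice made after the data were seen, 4 of the 50 enzymes were dorsal-enriched, beside 3.39% of protein-coding genes. These were *Hs3st2*, *Hs3st3a1*, *Sulf1* and *Hs2st1*, all among the 14. Of them, *Hs3st3a1* had passed the filter only through dorsal libraries, and its log2 fold change ranged from 2.97 to 7.86 over all other fits. None of the chondroitin and dermatan class was dorsal-enriched, and *Ext2* was not called (beside 1.97% in the ventral direction). The fitted log2 fold changes of *Chst15* (1.29, adjusted p = 0.0532), *Chst3* (2.73, adjusted p = 0.168) and *Ext2* (-3.46, adjusted p = 0.0567) were larger than those without the covariate or nearly equal to them, whereas those of *Chsy1* (0.22) and *Chst2* (0.19) were smaller. So were those of *Ust* (0.68), *Hs3st4* (0.74), *Dsel* (0.68) and *Ndst4* (0.78). The median of the 50 enzymes was 0.10 with the covariate and 0.38 without it. Because the covariate separates the groups fully, the part of the group and that of the covariate cannot be told apart, and a lost call does not show that a difference went away. Of 6 astrocyte markers, 4 were dorsal-enriched and 1 ventral-enriched, and their summed level was 1834 to 2088 CPM in dorsal and 659.7 to 1212 CPM in ventral libraries. For 6 oligodendrocyte markers, 3 were dorsal-enriched, with sums of 2199 to 2574 and 792 to 1453 CPM. Of 8 interneuron markers, 3 were ventral-enriched, with overlapping sums of 3268 to 4363 and 3951 to 5191 CPM. Of 5 granule cell markers 1 was dorsal-enriched, with sums of 763 to 801 and 421 to 721 CPM, and of 6 pyramidal cell markers 2 were, with sums of 279 to 340 and 201 to 284 CPM. Markers of oligodendrocyte precursors (sums of 20.8 to 57.3 and 28.4 to 47.1 CPM), microglia (22.7 to 25.8 and 14.3 to 33.0 CPM, 1 of 6 dorsal-enriched) and endothelial cells (9.69 to 45.3 and 10.4 to 53.6 CPM) were low in both groups. No defining marker of astrocytes or oligodendrocytes was at 0 in any library. The part of these cells in the differences of the enzymes was not tested.

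None of the 5 linker enzymes passed the test, beside 11.4% of protein-coding genes called in the dorsal and 10.3% in the ventral direction. In so few genes, no call lies near these shares. The mean was higher in ventral libraries for 4 of the 5, with a median log2 fold change of -0.09. Of protein-coding genes, 46.7% had a log2 fold change in the dorsal direction. *B3gat3*, which adds the glucuronic acid that completes the linker, was at 26.2 ± 4.9 CPM (SD, n = 5) in dorsal and 26.9 ± 4.88 CPM in ventral libraries (95% interval of the log2 fold change -0.44 to 0.35). *Xylt1*, one of the xylosyltransferases that start the chain, was at 33.1 ± 8.45 and 35.6 ± 5.26 CPM (interval -0.49 to 0.31). Both intervals lie inside the fold threshold of 0.58 in either direction. The galactosyltransferases were lower and less certain, *B4galt7* at 7.24 ± 2.56 and 9.57 ± 2.63 CPM (interval -0.95 to 0.28) and *B3galt6* at 3.4 ± 1.32 and 4.7 ± 1.19 CPM (interval -1.18 to 0.26). *Xylt2*, the other xylosyltransferase, was at 4.37 ± 1.8 and 3.17 ± 0.50 CPM (interval -0.22 to 1.29).

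**Figure D1:**
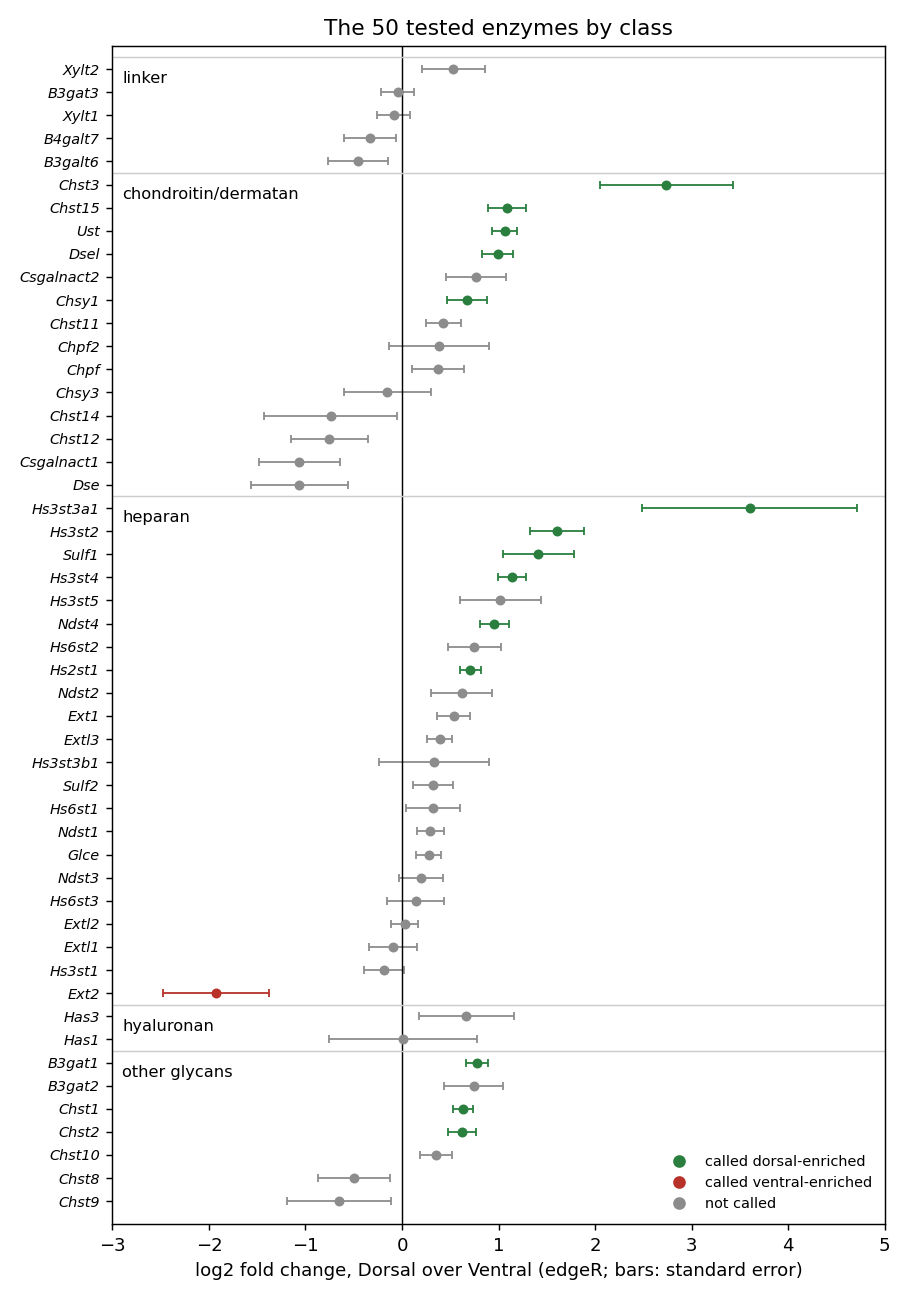
Log2 fold change, dorsal over ventral, of the 50 tested enzymes grouped by class, with standard errors from edgeR's quasi-likelihood fit. The 14 dorsal-enriched enzymes (green) belong to the chondroitin/dermatan, heparan and other-glycan classes, and *Ext2* (red) is the sole ventral-enriched enzyme. The 5 linker enzymes are not called and lie between -0.46 (*B3galt6*) and 0.53 (*Xylt2*).

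Chondroitin and dermatan enzymes included 5 dorsal-enriched genes among 14 tested (35.7%, beside 11.4% of protein-coding genes) and no ventral-enriched gene, and the class median was 0.41 on the log2 scale. The called genes were *Ust*, *Dsel*, *Chst15*, *Chst3* and *Chsy1*, that is, sulfotransferases, an epimerase and a polymerase. *Chst3* was above 1 CPM in dorsal libraries alone. Under the filter of more than 1 CPM in at least 5 libraries it was not tested, and 4 of the class were dorsal-enriched.

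*Ust* adds sulfate to carbon 2 of the uronic acid in chondroitin and dermatan chains. Its levels were 44, 55.9, 61.3, 47 and 50.1 CPM in dorsal libraries 1 to 5 and 26.9, 21, 25.7, 24.6 and 25.3 CPM in ventral libraries 1 to 5. All dorsal libraries lay well above all ventral libraries, and the ventral libraries lay close together. The means were 51.7 ± 6.97 and 24.7 ± 2.2 CPM (SD, n = 5 each), and the log2 fold change was 1.06 ± 0.13 (SE, adjusted p = 0.000118), a 2.09-fold difference.

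*Dsel* encodes the epimerase-like protein that turns glucuronic into iduronic acid in dermatan sulfate and is the more neural of the dermatan epimerases. Dorsal libraries 1 to 5 held 30.8, 31.6, 45.9, 39.9 and 45.3 CPM and ventral libraries 1 to 5 held 21, 21, 21.2, 19.1 and 16.3 CPM. Dorsal libraries 1 and 2 were lower than the other dorsal libraries, yet the groups did not overlap. The log2 fold change was 0.99 ± 0.16 (adjusted p = 0.00059), and it fell to 0.59 with correction for GC content and length, where its log2 ratio of mean CPM plus 1 no longer passed 0.58. The related *Dse* did not pass, with 0.847, 1.49, 7.43, 4.14 and 6.84 CPM in the dorsal and 15.8, 12.9, 2.28, 7.09 and 5.81 CPM in the ventral libraries, where ventral libraries 1 and 2 were highest and dorsal libraries 1 and 2 lowest (log2 fold change -1.06 ± 0.50, adjusted p = 0.115). Per kilobase of exon, *Dsel* made up 44.2 ± 4.61% of the summed level of the epimerases *Glce*, *Dse* and *Dsel* in dorsal libraries (36.5 to 47.8%) and 30.0 ± 2.55% in ventral libraries (26.7 to 33.6%), so that these shares did not overlap. *Dse* made up 5.25 ± 3.43% and 14.8 ± 7.91%.

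*Chst15* places a second sulfate on 4-O-sulfated *N*-acetylgalactosamine and so makes the disulfated chondroitin sulfate E unit. The dorsal libraries held 42.4, 22, 43.5, 36.6 and 34.7 CPM and the ventral libraries 18.1, 16.2, 11.8, 19.1 and 17.5 CPM. Dorsal library 2 was the lowest of its group and still lay above the highest ventral library. The log2 fold change was 1.09 ± 0.20 (adjusted p = 0.00125), a 2.12-fold difference. An exon of another gene on the opposite strand covers 17.9% of the exonic length of *Chst15*, and since the counting strand is not given in the sources used here, reads from both cannot be separated there.

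*Chst3*, a chondroitin 6-O-sulfotransferase, had the largest fitted difference of the class at a low level. It held 1.88, 1.82, 1.16, 0.661 and 0.393 CPM in the dorsal and 0.277, 0.44, 0.0844, 0.0633 and 0.0472 CPM in the ventral libraries, which are 20, 28, 17, 11 and 5 counts and 5, 5, 1, 1 and 1 counts. Dorsal library 5 lay within the ventral range, and ventral libraries 3, 4 and 5 were below the level of 3 counts, which corresponds to 0.146 to 0.269 CPM at these depths. Its log2 fold change was 2.74 ± 0.69 (95% interval 1.16 to 4.32, adjusted p = 0.00567). The other chondroitin 6-O-sulfotransferase, *Chst7*, did not pass the filter, at 0.0681 to 1.98 CPM in the dorsal and 0 to 0.792 CPM in the ventral libraries.

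*Chsy1* encodes chondroitin synthase, which elongates the chain. It held 14.5, 22.8, 16.8, 17.7 and 17.6 CPM in the dorsal and 7.32, 11, 16, 10.7 and 12.3 CPM in the ventral libraries. Ventral library 3 lay within the dorsal range and the other ventral libraries below it. This was a log2 fold change of 0.67 ± 0.21 (adjusted p = 0.0231), and the call was lost without dorsal replicate 2, ventral replicate 1 or ventral replicate 4 (adjusted p = 0.0507, 0.0531 and 0.0524).

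The 4-O-sulfotransferases did not pass the test. *Chst11*, which per kilobase of exon made up 87.3 ± 4.25% of the summed level of the chondroitin 4-O- and 6-O-sulfotransferases in dorsal and 80.0 ± 6.84% in ventral libraries, was at 52.4 ± 13.9 and 38.2 ± 7.12 CPM (log2 fold change 0.43 ± 0.18, adjusted p = 0.0766). *Chst12* was at 1.96 ± 1.22 and 3.52 ± 0.972 CPM (log2 fold change -0.75 ± 0.40, adjusted p = 0.156), and its share was 8.36 ± 5.44% and 17.8 ± 6.16%. *Chst14*, the dermatan 4-O-sulfotransferase, was near the filter at 0 to 1.56 CPM in the dorsal and 0 to 1.51 CPM in the ventral libraries. *Chst13* had no count in any library, which at these depths allows up to 0.146 to 0.269 CPM in a single library.

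*Csgalnact1* and *Csgalnact2* transfer the *N*-acetylgalactosamine that commits a chain to chondroitin, and their means differed in opposite directions without either passing the test. *Csgalnact1* held 5.55, 5.85, 7.43, 6.43 and 8.96 CPM in the dorsal and 7.71, 3.26, 28.6, 12.8 and 19.1 CPM in the ventral libraries. Ventral libraries 3, 4 and 5 lay above all dorsal libraries, while ventral library 2 lay below them (log2 fold change -1.06 ± 0.42, adjusted p = 0.0625). *Csgalnact2* held 4.7, 23.4, 15.5, 9.97 and 13.9 CPM in the dorsal and 8.27, 7.66, 10.2, 7.21 and 7.74 CPM in the ventral libraries, with dorsal library 1 the lowest of all 10 (log2 fold change 0.77 ± 0.31, adjusted p = 0.071). The polymerase partners *Chpf*, at 16.2 ± 6.86 and 12.9 ± 2.11 CPM, and *Chpf2*, at 5.01 ± 3.31 and 4.3 ± 3.97 CPM, and the synthase *Chsy3*, at 1.41 ± 0.765 and 1.52 ± 0.403 CPM, did not pass. Replicate 2 of either group was the highest library of its group for *Chpf2*, of which 44.1% of the exonic length is shared with exons of another gene.

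**Figure D2:**
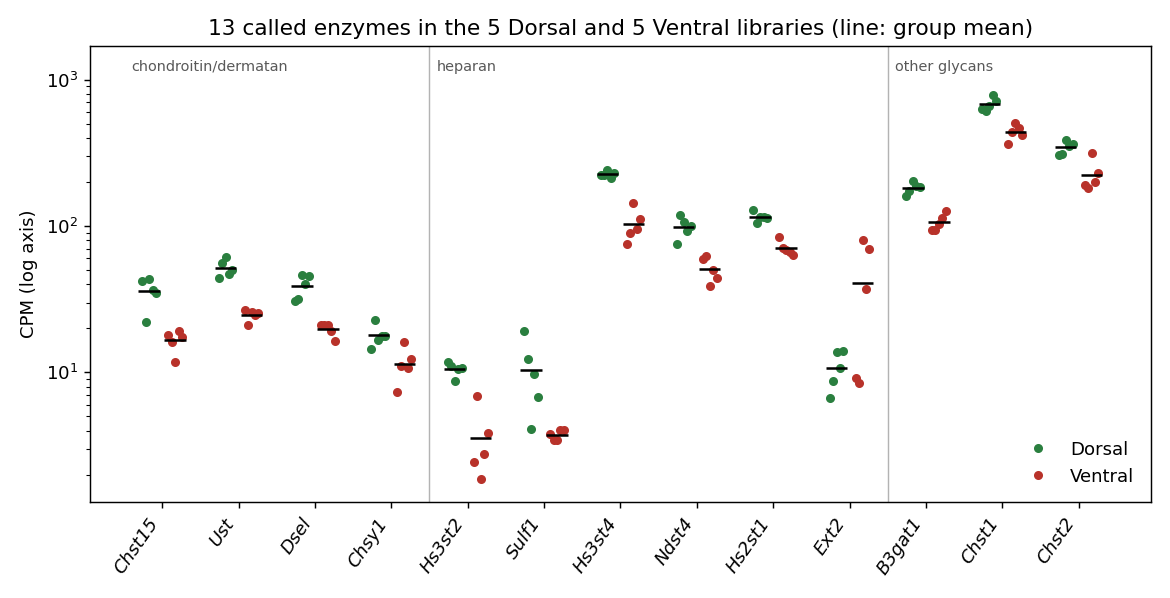
CPM on a log axis of 13 called enzymes in each dorsal (green) and ventral (red) library, with group means as lines (*Chst3* and *Hs3st3a1* are left out because some of their libraries are at or near 0). The groups separate fully for *Chst15*, *Ust*, *Dsel*, *Hs3st2*, *Sulf1*, *Hs3st4*, *Ndst4*, *Hs2st1*, *B3gat1* and *Chst1*, and for *Ext2* ventral libraries 1 and 2 lie among the dorsal ones.

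Heparan sulfate enzymes included 6 dorsal-enriched genes among 22 tested (27.3%, beside 11.4% of protein-coding genes) and 1 ventral-enriched gene (beside 10.3%). The class median was 0.36 on the log2 scale, with 19 of 22 log2 fold changes above 0, beside 46.7% of protein-coding genes. The 6 dorsal-enriched genes were *Hs3st4*, *Hs3st2*, *Hs3st3a1*, *Ndst4*, *Hs2st1* and *Sulf1*. All of them act on sulfation, and the ventral-enriched *Ext2* acts on polymerisation. *Hs3st3a1* was above 1 CPM in dorsal libraries alone. Under the filter of more than 1 CPM in at least 5 libraries it was not tested, *Hs6st2* was added, and the count stayed at 6.

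*Hs3st4* adds the rare sulfate at carbon 3 of glucosamine and is a neuronal member of its family. Dorsal libraries 1 to 5 held 222, 223, 241, 213 and 229 CPM and ventral libraries 1 to 5 held 75.6, 89.5, 143, 94.8 and 111 CPM. The dorsal libraries lay within a narrow range far above the ventral ones, of which library 3 was the highest. The edgeR fit gave a log2 fold change of 1.14 ± 0.14 (adjusted p = 0.000117), a 2.2-fold difference between 226 ± 10.4 and 103 ± 25.9 CPM.

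*Hs3st2* has the same activity. Its dorsal libraries held 11.9, 11.1, 8.72, 10.6 and 10.7 CPM and its ventral libraries 2.44, 6.87, 1.86, 2.78 and 3.87 CPM. Ventral library 2 stood above the other ventral libraries and below all dorsal ones. The fitted log2 fold change was 1.6 ± 0.28 (adjusted p = 0.00102), a 3.04-fold difference, and the gene was called under each of the 16 alternatives and in each of the 10 fits without 1 library.

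*Hs3st3a1* had the largest fitted fold of the tested enzymes and uneven libraries. The dorsal counts were 47, 1, 0, 39 and 17 (4.42, 0.065, 0, 2.34 and 1.34 CPM) and the ventral counts 0, 1, 4, 1 and 3 (0, 0.088, 0.338, 0.0633 and 0.142 CPM). Only dorsal libraries 1, 4 and 5 of the 10 libraries were above 1 CPM, and dorsal libraries 2 and 3 were as low as the ventral ones. Its log2 fold change was 3.6 ± 1.11 (95% interval 1.04 to 6.16, adjusted p = 0.0206), and the call was lost without dorsal replicate 4, ventral replicate 4 or ventral replicate 5 (adjusted p = 0.0689, 0.0527 and 0.0632). Exons of another gene cover 32.9% of its length on the opposite strand, and its coding sequence is close to that of *Hs3st3b1*, so that its reads are uncertain. *Hs3st3b1* itself was at 1.67 ± 0.943 and 1.22 ± 1.01 CPM and did not pass (adjusted p = 0.679).

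The rest of the 3-O-sulfotransferases did not pass. *Hs3st5* was at 4.46 ± 1.25 and 2.19 ± 1.67 CPM (log2 fold change 1.02 ± 0.42, adjusted p = 0.0765), *Hs3st1*, the enzyme known for the antithrombin-binding motif of heparin, at 11.9 ± 2.56 and 13.6 ± 3.0 CPM (log2 fold change -0.19 ± 0.21, adjusted p = 0.503), and *Hs3st6* had no count. Summed per kilobase of exon, the family was at 81.4 ± 2.05 CPM per kb in dorsal libraries (78.3 to 83.8) and 40.3 ± 9.31 CPM per kb in ventral libraries (30.8 to 54.9). *Hs3st4* made up 87.0 ± 2.33% of this sum in dorsal and 79.7 ± 1.78% in ventral libraries, and *Hs3st1* made up 6.57 ± 1.51% and 15.3 ± 1.94%, with no overlap of the groups in either share.

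**Figure D3:**
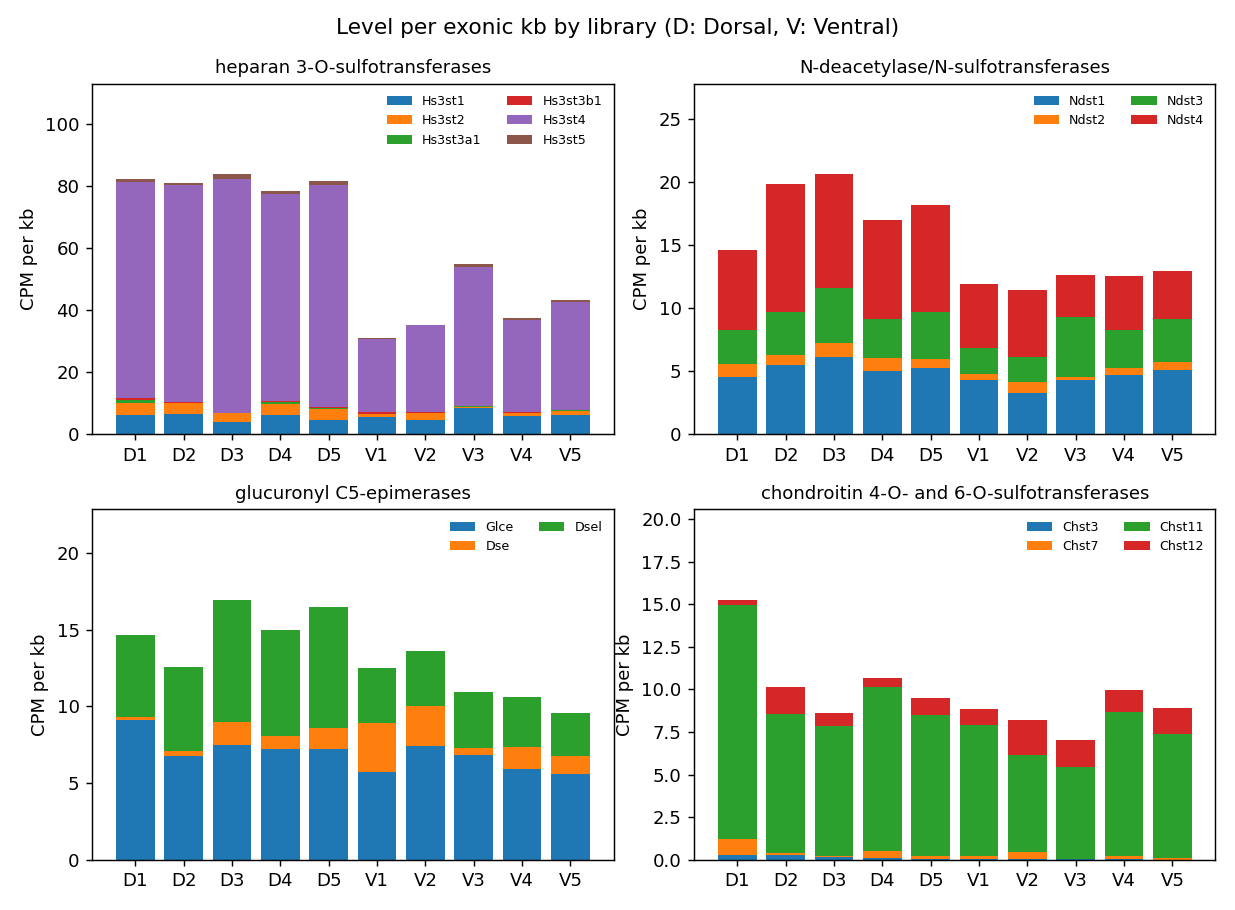
Level per kilobase of exon (CPM per kb) in each dorsal (D1 to D5) and ventral (V1 to V5) library, stacked by gene, for heparan 3-O-sulfotransferases, N-deacetylase/N-sulfotransferases, glucuronyl C5-epimerases, and chondroitin 4-O- and 6-O-sulfotransferases. The 3-O-sulfotransferase bars are mostly *Hs3st4* and stand between 78.3 and 83.8 in dorsal and between 30.8 and 54.9 in ventral libraries.

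*Ndst4* belongs to the N-deacetylase/N-sulfotransferases, which make the first modification of the heparan chain and thereby open it to later steps. It held 75, 119, 106, 92.8 and 99.9 CPM in the dorsal and 59.6, 62.4, 38.8, 50.0 and 44 CPM in the ventral libraries. Dorsal library 1, the lowest of its group, was above all ventral libraries. This was a log2 fold change of 0.96 ± 0.15 (adjusted p = 0.000585), a 1.94-fold difference. The transcript of *Ndst4* is 39.3% GC, among the lowest of the enzymes, and after the GC and length correction the log2 fold change was 0.36 (adjusted p = 0.109), no longer called. *Ndst1*, the broadly expressed member, was at 43.8 ± 4.89 and 35.6 ± 5.68 CPM (log2 fold change 0.29 ± 0.14, adjusted p = 0.121), *Ndst3* at 34.3 ± 6.24 and 30.2 ± 11.6 CPM (adjusted p = 0.527) and *Ndst2* at 4.06 ± 0.716 and 2.64 ± 1.09 CPM (adjusted p = 0.141). Per kilobase of exon, *Ndst4* made up 46.4 ± 3.01% of the family in dorsal libraries (43.7 to 51.1%) and 35.7 ± 8.72% in ventral libraries (26.2 to 46.5%), and these ranges overlap.

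*Hs2st1*, the sole heparan 2-O-sulfotransferase, held 129, 105, 114, 116 and 114 CPM in the dorsal and 84.1, 71.3, 68.1, 66.8 and 63.3 CPM in the ventral libraries. Dorsal library 1 and ventral library 1 were the highest of their groups, and the groups did not overlap. The edgeR fit gave a log2 fold change of 0.71 ± 0.11 (adjusted p = 0.000469), and after the GC and length correction it was 0.53 (adjusted p = 0.00292), under the fold threshold. Both uronic acid 2-O-sulfotransferases of the genome, *Hs2st1* for heparan and *Ust* for chondroitin and dermatan, were thus dorsal-enriched.

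*Glce*, the heparan C5-epimerase that acts beside *Hs2st1*, was at 51.7 ± 6.23 and 42.9 ± 5.37 CPM and did not pass (log2 fold change 0.28 ± 0.13, adjusted p = 0.112). Among 6-O-sulfotransferases, *Hs6st2* held 70.9, 56.4, 37.3, 61.4 and 54 CPM in the dorsal and 26.6, 69.4, 29, 24 and 22.9 CPM in the ventral libraries. Ventral library 2 was within the dorsal range and the other ventral libraries were below all dorsal ones. Its log2 fold change was 0.75 ± 0.28 with an adjusted p of 0.05001, which lay just outside the threshold, and without ventral replicate 2 it was 1.13 (adjusted p = 0.000792). *Hs6st1*, at 10.6 ± 1.11 and 8.22 ± 3.78 CPM (adjusted p = 0.396), and *Hs6st3*, at 7.63 ± 3.33 and 7.02 ± 1.72 CPM (adjusted p = 0.741), did not pass.

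*Sulf1* encodes an extracellular endosulfatase that removes 6-O-sulfates from finished heparan chains. It held 19.2, 12.3, 4.09, 9.79 and 6.84 CPM in the dorsal and 3.77, 3.43, 3.46, 4.05 and 4.06 CPM in the ventral libraries. The dorsal libraries were widely spread and the ventral libraries nearly equal, and dorsal library 3 exceeded the highest ventral library by a margin far smaller than the spread of either group. The fitted log2 fold change was 1.41 ± 0.37 (adjusted p = 0.0101). *Sulf2*, the other endosulfatase, was at 51.3 ± 12 and 41.6 ± 13.1 CPM and did not pass (log2 fold change 0.32 ± 0.21, adjusted p = 0.255). Per kilobase of exon, *Sulf2* made up 89.5 ± 7.42% of both in dorsal and 95.2 ± 1.46% in ventral libraries.

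*Ext2* is the partner of *Ext1* in the polymerase that elongates heparan sulfate. Its dorsal libraries held 6.68, 8.71, 13.7, 10.8 and 13.9 CPM and its ventral libraries 9.1, 8.45, 80.1, 37.3 and 70.1 CPM. Ventral libraries 3, 4 and 5 were far above all dorsal libraries, while ventral libraries 1 and 2 lay within the dorsal range. Its log2 fold change was -1.93 ± 0.55 (95% interval -3.19 to -0.66, adjusted p = 0.0165), and without ventral replicate 5 it was -1.59 with an adjusted p of 0.057, which ended the call. *Csgalnact1*, described above, had its 3 highest values in the same ventral libraries 3, 4 and 5.

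No other member of this family was called. *Ext1* held 28.8, 42.4, 51, 42.6 and 51.9 CPM in the dorsal and 34.1, 34.5, 32.7, 23.9 and 26.4 CPM in the ventral libraries, where dorsal library 1 lay within the ventral range. Its adjusted p of 0.0265 was under 0.05 and its log2 fold change of 0.54 ± 0.17 did not reach the fold threshold. *Extl3*, which adds the first *N*-acetylglucosamine of the heparan chain, held 56.7, 67.3, 85.3, 81.3 and 76.5 CPM in the dorsal and 58.9, 50.5, 51.7, 60.0 and 59.2 CPM in the ventral libraries (log2 fold change 0.39 ± 0.13, adjusted p = 0.0303), where dorsal library 1 again lay within the ventral range. By adjusted p alone, 15.4% of protein-coding genes were higher in dorsal and 16.1% higher in ventral libraries. *Extl2* was at 98.8 ± 15.3 and 97.4 ± 16.2 CPM (95% interval -0.29 to 0.35) and *Extl1* at 16.3 ± 3.17 and 18.1 ± 7.4 CPM (adjusted p = 0.791). The summed level of the family was 51.4 ± 2.30 CPM per kb in dorsal and 51.0 ± 7.62 CPM per kb in ventral libraries, with *Extl2* as the largest component (55.8 ± 8.06% and 55.4 ± 4.14%).

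**Figure D4:**
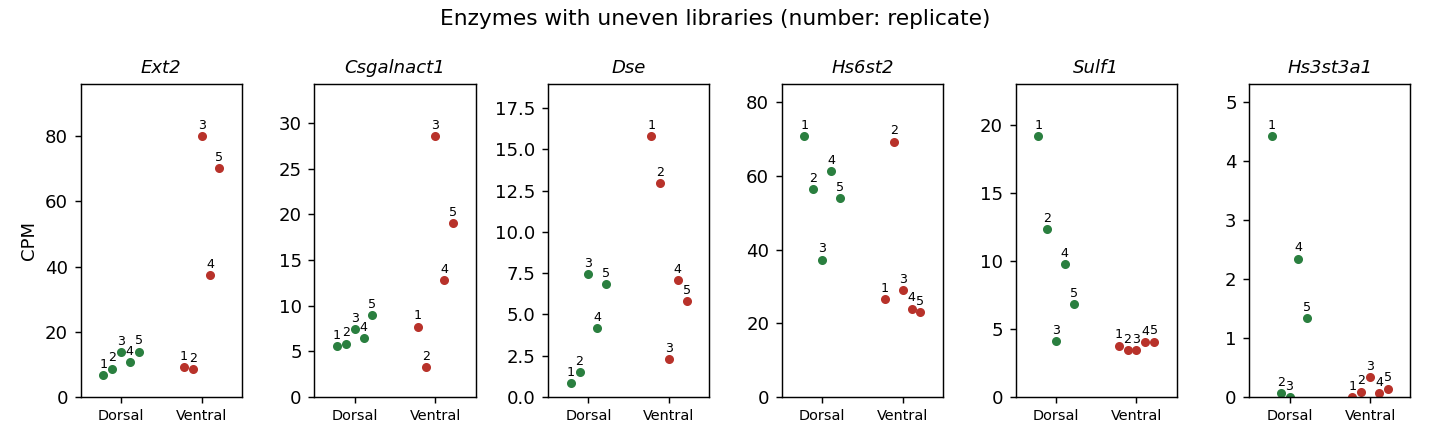
CPM of *Ext2*, *Csgalnact1*, *Dse*, *Hs6st2*, *Sulf1* and *Hs3st3a1* in each dorsal (green) and ventral (red) library, each point numbered by its replicate. Ventral replicates 3, 4 and 5 are high for *Ext2* and *Csgalnact1*, and ventral replicate 2 stands alone at 69.4 CPM for *Hs6st2*.

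Hyaluronan synthases were at low levels, with *Has1* at 0 to 3.3 CPM in the dorsal and 0.222 to 4.39 CPM in the ventral libraries and *Has3* at 0.753 to 3.88 and 0.88 to 2.2 CPM. *Has2*, at 0 to 3.57 and 0 to 0.444 CPM, did not pass the filter. Neither *Has1* (95% interval -1.76 to 1.78) nor *Has3* (interval -0.47 to 1.80) passed the test. The libraries of *Has1* were widely spread in both groups, and its interval allows a several-fold difference in either direction, that of *Has3* in the dorsal direction.

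Among the enzymes of other glycans, 3 of 7 tested were dorsal-enriched (42.9%, beside 11.4% of protein-coding genes). *Chst1*, which sulfates galactose of keratan sulfate and had the highest level per kilobase of all 56 genes (254 CPM per kb in dorsal and 164 in ventral libraries), held 632, 614, 658, 787 and 717 CPM in the dorsal and 365, 442, 503, 467 and 419 CPM in the ventral libraries. The groups did not overlap. This was a log2 fold change of 0.64 ± 0.10 (adjusted p = 0.000671), close to the fold threshold. Leaving out dorsal replicate 4 or ventral replicate 1 ended the call through that threshold alone (adjusted p = 0.00291 and 0.0017).

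*Chst2*, which sulfates *N*-acetylglucosamine on carbon 6, held 307, 313, 385, 353 and 365 CPM in the dorsal and 189.5, 181, 317, 201 and 231 CPM in the ventral libraries. Ventral library 3 lay within the dorsal range and the other ventral libraries below it. The edgeR fit gave a log2 fold change of 0.62 ± 0.14 (adjusted p = 0.00503). Leaving out ventral replicate 1 or 2 ended the call through the fold threshold alone (0.57 and 0.56, adjusted p = 0.0132 and 0.0117).

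*B3gat1* encodes the glucuronyltransferase that makes the HNK-1 epitope of neural adhesion molecules. Its dorsal libraries held 159.9, 174, 202, 188 and 186 CPM and its ventral libraries 93.4, 93.9, 103, 113 and 126 CPM, with no overlap. The fitted log2 fold change was 0.77 ± 0.11 (adjusted p = 0.000303), and no single library was needed for the call. The related *B3gat2*, at 8.78 ± 3.51 and 5.3 ± 1.48 CPM (adjusted p = 0.0719), and *Chst10*, which completes the epitope with a sulfate, at 28.3 ± 3.95 and 22.4 ± 4.97 CPM (adjusted p = 0.114), did not pass. Exons of another gene on the opposite strand cover 33.5% of the exonic length of *B3gat2*. *Chst8* and *Chst9*, which sulfate *N*-acetylgalactosamine on N-glycans, had the higher means in ventral libraries and did not pass (adjusted p = 0.317 and 0.367). *Chst4* and *Chst5* were at or near 0, with at most 0.52 CPM in any library.

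The base composition of transcripts moved with the comparison. When the trend of each library on GC content and exonic length was removed, the median of all tested genes shifted from -0.0044 to -0.16 on the log2 scale, dorsal calls went from 61.4% to 42.2% of all calls, and 9 enzymes were dorsal-enriched (18% of 50, beside 9.09% of protein-coding genes) and 2 ventral-enriched (beside 18.1%). The 9 included *Chst3* and *Hs3st3a1*, which had passed the filter only through dorsal libraries. The enzymes that lost the call were *Dsel*, *Chsy1*, *Ndst4*, *Hs2st1* and *Chst2*. Of these, *Chsy1* kept its log2 fold change of 0.67 (adjusted p = 0.0235) and fell under the threshold on the ratio of mean CPM plus 1, which it had passed at 0.60, and *Chst2* went from 0.62 to 0.51 (adjusted p = 0.0129). In the other direction, *Csgalnact1* became ventral-enriched at -1.22 (adjusted p = 0.0294). The median of the 50 enzymes after correction was 0.36. The largest single shift was that of *Csgalnact2*, with 37.4% GC the lowest of the tested enzymes, from 0.77 to -0.12, and *Ust* (0.97), *Chst15* (1.09), *Hs3st4* (1.2) and *Hs3st2* (1.68) stayed called.

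**Figure D5:**
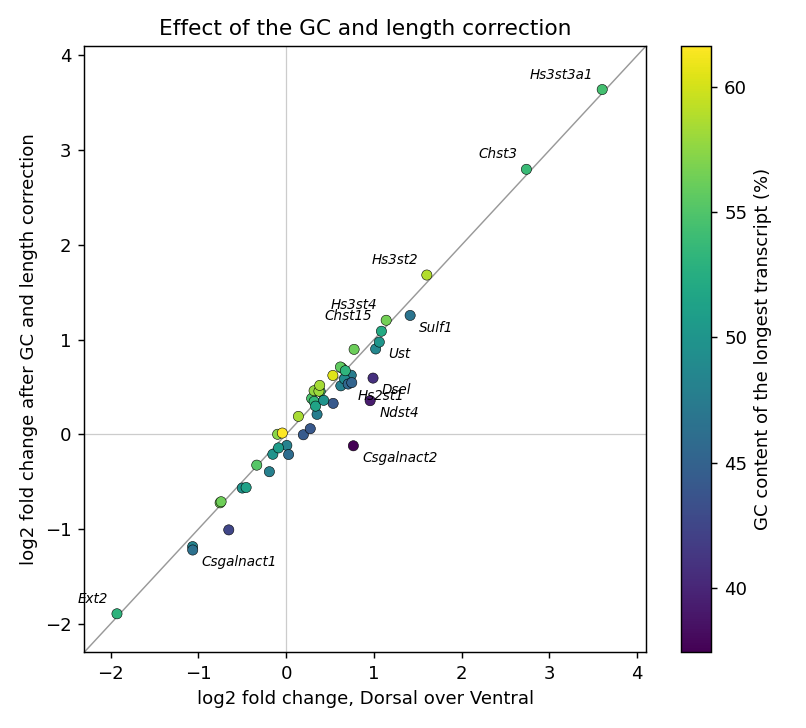
Log2 fold change, dorsal over ventral, of the 50 tested enzymes as fitted (x axis) and after removal of the trend on GC content and exonic length (y axis), coloured by the GC content of the longest transcript, with the line of equality. Dark points (low GC) such as *Csgalnact2*, *Ndst4* and *Dsel* fall below the line, and *Hs3st4*, *Hs3st2* and *B3gat1* lie on or above it.

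The proteins that carry the chains were examined from lists of pathway genes. Of 13 tested core proteins of chondroitin sulfate proteoglycans, 4 were dorsal-enriched and 1 was ventral-enriched, and the list's median log2 fold change was 0.31. Among all tested protein-coding genes, 11.4% were called in the dorsal and 10.3% in the ventral direction, and their median was -0.04. The largest differences were those of *Dcn*, the small proteoglycan decorin, at 4.39 ± 2.22 CPM in the dorsal and 15 ± 2.38 CPM in the ventral libraries (log2 fold change of -1.78 ± 0.29, adjusted p = 0.000628), *Cd44*, a hyaluronan receptor that can carry chondroitin sulfate (1.61 ± 0.47, adjusted p = 0.0179), and *Bgn*, biglycan (1.15 ± 0.33, adjusted p = 0.0177). Decorin and biglycan, close relatives, thus differed in opposite directions. Of 15 core proteins of heparan sulfate proteoglycans, 5 were dorsal-enriched and none ventral-enriched (beside 11.4% and 10.3% of protein-coding genes), with a median of 0.25. They included *Col18a1*, at 0.922 ± 0.589 and 0.145 ± 0.106 CPM (2.65 ± 0.72, adjusted p = 0.00973), the glypican *Gpc3* (1.36 ± 0.42, adjusted p = 0.0226) and the syndecan *Sdc4*, at 23.4 ± 3.3 and 11.4 ± 3.3 CPM (1.0 ± 0.20, adjusted p = 0.00223). *Col18a1* passed the filter only through dorsal libraries, with no ventral library above 0.316 CPM.

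Sulfation needs sulfate inside the cell and an activated donor in the Golgi. Of 18 tested genes for donors and transporters, 3 were dorsal-enriched, 2 were ventral-enriched, and the median log2 fold change was -0.000707. Both counts lie near the shares of 11.4% and 10.3% of protein-coding genes. *Slc26a2*, the sulfate transporter known from chondrodysplasias, was at 16.2 ± 5.95 CPM in the dorsal and 3.81 ± 1.53 CPM in the ventral libraries (log2 fold change 2.13 ± 0.32, adjusted p = 0.000403), whereas *Slc26a11*, another anion transporter of the family, was at 0.975 ± 0.688 and 3.02 ± 1.22 CPM (-1.54 ± 0.46, adjusted p = 0.0203). *Gfpt2*, which feeds the hexosamine pathway, was ventral-enriched at 2.18 ± 0.888 and 5.03 ± 2.46 CPM (-1.31 ± 0.42, adjusted p = 0.0266).

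Of 17 tested enzymes of breakdown in lysosomes and outside cells, 3 were dorsal-enriched, 2 were ventral-enriched, and the median was 0.15. These counts too lie near the 11.4% and 10.3% of protein-coding genes. The hyaluronidase *Hyal2* was ventral-enriched (-1.26 ± 0.46, adjusted p = 0.0459), and the lysosomal enzymes *Arsg*, a sulfatase of heparan sulfate (1.12 ± 0.34, adjusted p = 0.0234), and *Gusb*, the β-glucuronidase (0.95 ± 0.27, adjusted p = 0.0153), were dorsal-enriched. Among 9 tested genes listed for the perineuronal net or for chondroitin sulfate binding, 1 was dorsal-enriched, a count near the 11.4% of protein-coding genes. It was the tenascin *Tnr*, at 199 ± 9.93 CPM in the dorsal and 113 ± 21 CPM in the ventral libraries (0.82 ± 0.12, adjusted p = 0.000383). Of 18 genes for proteins that bind heparan sulfate, 5 were dorsal-enriched and none ventral-enriched (beside 11.4% and 10.3%), with a median of 0.19. The growth factor *Fgf2*, whose receptor binding depends on heparan sulfate, was at 29.6 ± 3.97 and 11.6 ± 2.04 CPM (1.37 ± 0.17, adjusted p = 9.50e-05), the receptor *Fgfr2* at 27.7 ± 5.02 and 12.3 ± 1.42 CPM (1.15 ± 0.17, adjusted p = 0.000339), and *Ptn*, pleiotrophin, at 614 ± 56.5 and 284 ± 38.1 CPM (1.11 ± 0.11, adjusted p = 1.99e-05).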

How the data were processed

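The deposited values were whole-number counts of read pairs per Ensembl gene in 10 libraries, which the authors had aligned to GRCm38 with STAR 2.5.2b and counted with HTSeq 0.7.2, as deposited without normalization. The RNA had been amplified (Ovation) and sequenced as paired ends, and the counting strand and annotation release are not given in the sources used here. Read pairs on no gene or on several were kept out of library sizes (11.6 to 33.9% and 5.92 to 8.66%). Symbols, exonic length and GC content came from GENCODE vM21, which matched 54809 of 54838 identifiers.

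edgeR 4.0.16 under R 4.3.3 was run on the counts (CPM above 1 in at least 2 libraries, TMM, quasi-likelihood test of dorsal against ventral, Benjamini-Hochberg adjusted p over every gene tested). Enrichment required an adjusted p under 0.05 together with a log2 ratio of group means (CPM plus 1) beyond 0.58 in either direction. The standard error was taken as log2 fold change over the square root of F. The 95% intervals use the degrees of freedom of 10 libraries less 2 groups. They leave out those that the quasi-likelihood test adds from other genes, so they need not match its p-values. Intervals and the floor of 3 counts cover no amplification error. The quasi-likelihood setting (dispersions of edgeR 4) was chosen after settings had been tried on these data, and the default of the function gave 2217 dorsal and 1408 ventral genes in place of 2636 and 1655, with the same counts of 14 and 1 among the enzymes. Enzymes, pathway lists and marker lists were chosen with earlier results of these data known. Called enzymes and those past the adjusted p alone are given in every library, the others by level, and at most the 3 called genes with the largest log2 fold change are named per pathway list.

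Libraries are pools of mice, and dorsal and ventral tissue came from the same mice, which the fit without a replicate block does not model. Nothing in the labels says more about their independence. No library was a duplicate of another of its group (chi-square per degree of freedom between their counts of 4.36 to 45.1). The alternatives were other library scalings, filters and thresholds, DESeq2 1.42.0, edgeR's likelihood-ratio test, a replicate block, offsets for GC content and length (mgcv 1.9.3), and each library left out. Fits to protein-coding genes alone, with the dispersions of edgeR 3, or with the no-gene share of read pairs as a covariate were added after seeing the data. The test was checked on simulated counts of 16072 genes, of which 200 were changed. It recovered 72% of the 2-fold and 94% of the 4-fold changes, none in the wrong direction, with 17 false calls. Smaller folds and genes of low level were not among those changed, so recovery there was not measured. Protein sequences were not used here.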

Additional observations from a re-analysis of the deposited data

Results flagged for a closer look

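In the 100 groups of 5 libraries formed by the 50 tested enzymes and the 2 groups, 6 values stood apart from the other libraries of their group by Dixon's criterion (gap over range above 0.71), where chance flags about 1 group in 20. Ventral replicate 2 held 3 of them. It was at 69.4 CPM for *Hs6st2* against at most 29.0 CPM in the other ventral libraries, at 11.4 CPM for *Chpf2* against at most 3.29 CPM, and at 14.2 CPM for *B4galt7* against at most 9.21 CPM. Dorsal replicate 1 was the lowest of its group for *B4galt7*, at 2.82 CPM against at least 7.21 CPM, and for *Xylt2*, at 1.22 CPM against at least 4.70 CPM. Dorsal replicate 2 was the highest of its group for *Chpf2*, at 10.8 CPM against at most 4.23 CPM. None of these enzymes was called.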

How the results depend on the processing

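The count of 14 dorsal-enriched and 1 ventral-enriched of 50 enzymes stood beside 11.4% and 10.3% of protein-coding genes. It became 9 and 2 with the GC and length correction (beside 9.09% and 18.1%), also together with the replicate block (beside 9.30% and 18.3%). With the no-gene share of read pairs as a covariate it was 4 and 0 (beside 3.39% and 1.97%). *Chst3* and *Hs3st3a1*, which passed the filter only through dorsal libraries, were among the 14 and the 9, and *Hs3st3a1* among the 4. At an adjusted p below 0.01 the count was 11 and 0 (beside 6.64% and 6.07%). Without an expression filter it was 16 and 3 of 54 (beside 8.83% and 7.82%). With more than 1 CPM in at least 5 libraries it was 13 and 1 of 47 (beside 10.7% and 8.93%). Dorsal-enriched chondroitin and dermatan enzymes went from 5 to 3 with the GC and length correction, also with the block, and to 0 with the covariate. There the log2 fold changes of *Chst15* (1.29) and *Chst3* (2.73) were about as large as before, while those of *Ust* (0.68) and *Dsel* (0.68) were smaller. The median of the 50 enzymes with the covariate was 0.10 in place of 0.38, and that of protein-coding genes -0.0451 in place of -0.0409. Dorsal-enriched heparan enzymes stayed within 1.5 times of 6. Over all genes, the GC and length correction gave 2859 ventral-enriched genes (2919 with the block) in place of 1655, an adjusted p below 0.01 gave 1498 dorsal-enriched and 897 ventral-enriched genes, protein-coding genes alone gave 1665 dorsal-enriched genes, and the covariate gave 834 and 339. The share of calls that were dorsal was 71.1% with the covariate against 61.4%. With 1 library left out, 11 to 16 enzymes were dorsal-enriched and 0 to 2 ventral-enriched. Beside them, 9.26 to 11.9% of protein-coding genes were dorsal-enriched and 7.87 to 11.4% ventral-enriched. Some of these fits also had fewer libraries, fewer tested genes or a stricter threshold, and the cause of the changes was not tested.

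The replicate numbers come from the labels, and same-numbered libraries did not deviate together from their group means (correlations of -0.03 to 0.07 over 5 pairs, mean 0.0159 against -0.00207 for different numbers). Both groups draw on the same mice, but no source used here says that a number marks a shared pool, and correlations near 0 do not settle it. The replicate block gave 15 dorsal-enriched and 2 ventral-enriched enzymes (beside 11.4% and 10.4% of protein-coding genes), with *Hs6st2* and *Csgalnact1* added.

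The direction turned for enzymes that were not called. *Has1*, at 0.01 as fitted, was at -0.0555 with DESeq2, -0.0791 with the likelihood-ratio test, -0.0470 with the replicate block, -0.12 with the GC and length correction, -0.18 with that correction and the block, -0.0739 with the dispersions of edgeR 3 and -3.80 with the covariate. With the GC and length correction the log2 fold change was 0.0137 for *B3gat3* (0.0442 with the block), -0.12 for *Csgalnact2* (-0.24), -0.21 for *Extl2* (-0.22), 0.000657 for *Extl1* and -0.0044 for *Ndst3*. With the covariate it was 0.0366 for *B3galt6*, -0.90 for *Chpf*, 0.53 for *Chsy3*, -0.45 for *Csgalnact2*, -1.002 for *Has3*, -0.33 for *Hs6st3*, -0.71 for *Ndst3* and -0.00157 for *Sulf2*. With 1 library left out the ranges that included 0 were -0.47 to 0.65 for *Has1*, -0.13 to 0.0547 for *B3gat3*, -0.0391 to 0.10 for *Extl2*, -0.25 to 0.13 for *Extl1*, -0.16 to 0.99 for *Chpf2*, -0.33 to 0.16 for *Chsy3* and -0.15 to 0.26 for *Hs6st3*. The 15 called enzymes kept their direction under every alternative run. Depth limits enzymes near 1 CPM such as *Chst3*, whose ventral counts were 1 to 5.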
